A study of Homo sapiens with 6 samples.

Results

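Gene expression with shRNA1, 1 of the study's hairpin RNAs against circRTN4(2,3), was compared with a scrambled control hairpin in human forebrain neuron progenitor cells at day 26. The comparison took in every gene whose mean FPKM in the 4 libraries concerned reached 1, which left 18110 of the 59151 genes in the deposited table. Just inside that limit was ZNF826P, with a mean of 1.00005 FPKM, and just outside it LOC105372311, with 0.999939. FPKM is the number of fragments of a gene, scaled by its length and by the reads counted in the library. The cells were derived from H9, an established line of human embryonic stem cells. The scramble group (genotype WT) and the circRTN4 shRNA1 group (genotype circRTN4(2,3) knockdown) held 2 libraries each, out of 6 in the series. The remaining 2 libraries carried shRNA2, another hairpin against the same circular RNA. All were made from total RNA depleted of ribosomal RNA. The labels say nothing of how long a hairpin was expressed, which vector carried it, or whether replicates came from different cultures. Every p-value below therefore reflects no more than how far these libraries lie apart, a spread that may be technical.

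A circular RNA forms when a downstream splice site joins an upstream one, and the ring that results has no free ends and no poly(A) tail. RTN4 encodes the Nogo proteins, which shape the endoplasmic reticulum and, in myelin, restrain axon growth. In the early forebrain, progenitors next to the ventricle divide or turn into neurons, while the cortical hem, a signalling centre at the medial edge of the cortex, secretes Wnt and BMP proteins and borders the choroid plexus, the epithelium that makes cerebrospinal fluid.

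Reads were counted per gene, so reads of the circular RNA and of linear RTN4 mRNA were not separated and the level of the circle was not measured. RTN4 stood at 40.3 and 38.5 FPKM with scramble and at 34.2 and 34.7 with shRNA1. Both shRNA1 libraries were below both scramble libraries, yet the log2 fold change of -0.19 ± 0.05 (SE) did not pass (limma, adjusted p = 0.415). PABPC1, a poly(A)-binding protein that the study links to circular RNAs, measured 46.1 and 43.5 FPKM with scramble against 39.2 and 40.6 with shRNA1 (log2 fold change -0.16, adjusted p = 0.514). Fold changes here are differences of log2(FPKM + 1), a scale that understates the change of low genes.

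Against scramble, 7 genes fell with shRNA1 and 0 rose at an adjusted p under 0.05, which is 0.0387% of the tested genes lower and 0% higher. They were TTR, CRABP1, COL3A1, RSPO2, GJA1, WNT8B and WLS, and each is protein-coding. At an unadjusted p under 0.05 there were 1644 genes (9.08%), 951 lower (5.25%) and 693 higher (3.83%). Both shRNA1 libraries lay below both scramble libraries for 3434 genes (19%) and above them for 2859 (15.8%), and the median log2 fold change of all tested genes was -0.003. These shares are the background of each count of list members below or above scramble given here. The 7 genes kept their direction in each alternative, but the calls depended on all 4 libraries being present and on the fit. Leaving out 1 of these libraries left 1 in its group. Without scramble replicate 1, 1 gene passed, and without scramble replicate 2 or either shRNA1 library 0 passed. A fit to the 4 libraries alone gave 0 calls, and a test among protein-coding genes alone gave 18 lower and 4 higher. In bulk RNA, fewer cells of a type and less RNA per cell cannot be told apart.

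**Figure D1:**
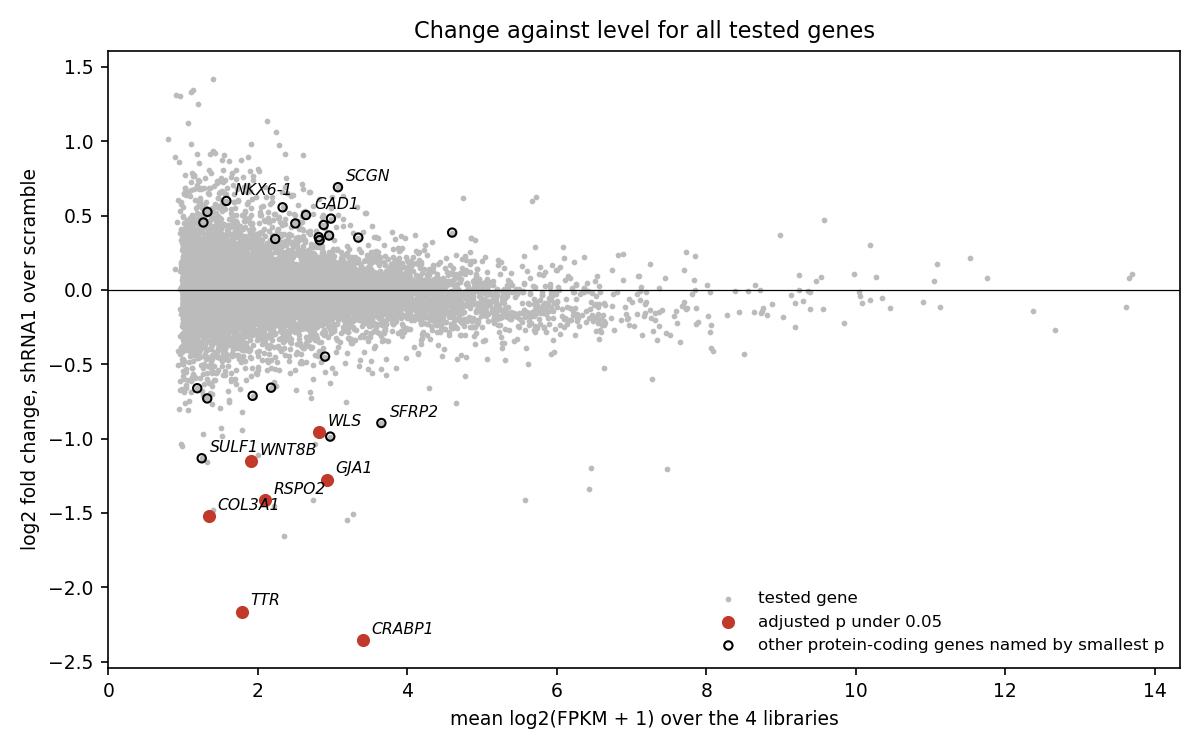
Log2 fold change of shRNA1 over scramble against the mean log2(FPKM + 1) of the 4 libraries, one grey point per tested gene (18110). Red points are the 7 genes with an adjusted p under 0.05, all below 0, and open circles are the other protein-coding genes with the smallest p in each direction.

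Of the 7 genes, 3 belong to Wnt signalling. WNT8B, which encodes a secreted ligand typical of the cortical hem, measured 4.55 and 4.68 FPKM with scramble and 1.53 in each shRNA1 library. It fell 3.02-fold in mean FPKM (log2 fold change -1.15 ± 0.05, adjusted p = 0.0154). RSPO2, an R-spondin that keeps Wnt receptors at the cell surface, went from 5.79 and 6.17 FPKM to 1.71 and 1.53 (log2 fold change -1.41 ± 0.09, adjusted p = 0.0463). The carrier that takes lipid-bearing Wnt proteins to the cell surface, WLS, gave 8.37 and 9.31 FPKM with scramble and 4.12 and 4.02 with shRNA1. WLS fell 2.17-fold (log2 fold change -0.96 ± 0.06, adjusted p = 0.0498), the call nearest the threshold. For all 3 genes the groups were well apart, with each shRNA1 library below the lower scramble library.

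The 250 bases before the start of WNT8B and WLS, of the Wnt group, and of GJA1, the gene with the smallest p, are printed so that they can be compared for the core of the motif bound by TCF/LEF factors, the transcription factors of the Wnt pathway. Letters are from RefSeq (GRCh38.p14), 5′ to 3′ on the gene's strand, with matches to CTTTGA or CTTTGT on either strand in capitals. The windows are chr10:100462759-100463008 (plus strand), chr1:68232547-68232796 (minus strand, the more upstream of 2 listed starts) and chr6:121435396-121435645 (plus strand).
WNT8B: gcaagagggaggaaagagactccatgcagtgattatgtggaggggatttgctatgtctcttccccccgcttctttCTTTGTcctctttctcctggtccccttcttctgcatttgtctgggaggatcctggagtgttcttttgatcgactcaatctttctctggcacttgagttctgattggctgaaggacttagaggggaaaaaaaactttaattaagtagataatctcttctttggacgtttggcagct
WLS: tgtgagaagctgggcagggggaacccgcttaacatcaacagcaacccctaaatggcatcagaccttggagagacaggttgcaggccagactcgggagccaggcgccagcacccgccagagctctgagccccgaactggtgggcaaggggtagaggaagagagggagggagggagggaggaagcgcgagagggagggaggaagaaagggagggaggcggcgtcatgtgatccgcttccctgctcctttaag
GJA1: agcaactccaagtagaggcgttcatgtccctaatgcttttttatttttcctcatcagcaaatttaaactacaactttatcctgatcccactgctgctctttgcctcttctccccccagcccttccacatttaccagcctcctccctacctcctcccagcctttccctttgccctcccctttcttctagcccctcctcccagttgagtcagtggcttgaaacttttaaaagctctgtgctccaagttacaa
WNT8B held 1 match, CTTTGT at base 76 of its window, and WLS and GJA1 held 0. The table listed 4 of the 7 genes, and in CRABP1, the other one listed, no match was found either. Of all 35116 promoters of this length, 22.8% held at least 1 match. Counted per gene, 21.6% of the 8696 tested genes with such a promoter had a match in at least 1 of their promoters. The GC content was 45.2% for WNT8B, 48.0% for GJA1 and 62.0% for WLS, against a median of 58% over all promoters.

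Other members of the Wnt pathway varied by role. Of 26 listed ligands, amplifiers and secretion factors, 8 passed the filter on level, 3 of them fell, and the median log2 fold change of the 8 was -0.59. RSPO3 measured 1.76 and 1.98 FPKM with scramble and 0.821 and 0.804 with shRNA1 (-0.66, adjusted p = 0.149), and RSPO1 2.05 and 2.14 against 1.10 and 1.20 (-0.53, adjusted p = 0.206). WNT4 lay the other way, at 0.760 and 0.942 FPKM with scramble and 1.17 and 1.22 with shRNA1 (0.25, adjusted p = 0.447). WNT7A (-0.01) and WNT5B (0.003) had nearly equal means in the 2 groups. Below the filter and so untested, WNT5A stood at 0.533 and 0.476 FPKM with scramble against 0.204 and 0.182 with shRNA1, WNT3A at 0.236 and 0.455 against 0.115 and 0.120, and WNT2B at 0.796 and 0.748 against 0.802 and 0.775. RSPO1, RSPO3, WNT3A and WNT5A were lower in both shRNA1 libraries, and WNT2B was not. The 18 members below the filter went both ways, with RSPO4, WNT1, WNT3 and WNT10A higher in both shRNA1 libraries. RSPO4 lay at 0.112 and 0.148 FPKM with scramble against 0.179 and 0.205 with shRNA1, and WNT3 at 0.324 and 0.394 against 0.396 and 0.423.

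Among 27 tested Wnt receptors and transducers, 0 were called, 10 had both shRNA1 libraries below scramble and 1 above, or 37.0% and 3.70% against 19% and 15.8% of all tested genes. LGR4, a receptor of R-spondins, measured 4.61 and 4.31 FPKM against 3.38 and 3.32 with shRNA1 (-0.33, adjusted p = 0.284). LEF1, a transcription factor of the pathway that is also its target, gave 4.75 and 4.94 against 3.70 and 3.82 (-0.30, adjusted p = 0.301). Further feedback targets were NKD1 (-0.24), AXIN2 (-0.22) and CCND1 (-0.19), none of which passed. Of the 8 feedback targets tested, 5 had both shRNA1 libraries below scramble and 1 above, with a median of -0.16. The antagonists split, with 3 of 6 on each side of 0. SFRP2 stood at 15.5 and 16.8 FPKM with scramble and 8.16 and 8.27 with shRNA1 (-0.89, adjusted p = 0.127) and TPBG, a membrane protein that restrains Wnt signals, at 3.66 and 4.10 against 1.94 and 2.01 (-0.71, adjusted p = 0.128). FRZB lay at 2.78 and 2.92 with scramble and 3.61 and 3.45 with shRNA1 (0.24, adjusted p = 0.511).

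The cortical hem and roof plate list held 14 tested members of 27, of which 4 fell (WNT8B, RSPO2, WLS and TTR), 10 lay below scramble in both shRNA1 libraries and 2 above. Its median was -0.50, and -0.34 to -0.65 when each library was left out in turn. Among members whose mean reached 5 FPKM it was 0.062. The BMP ligand BMP7 measured 1.77 and 2.35 FPKM with scramble and 1.16 and 1.21 with shRNA1 (-0.48, adjusted p = 0.339), and BMP6 1.68 and 1.82 against 1.38 and 1.44 (-0.19, adjusted p = 0.492). ID1, a target of BMP signals, gave 3.56 and 5.01 against 2.59 and 2.62 (-0.54, adjusted p = 0.392). ZIC1, a zinc finger factor of the dorsal midline, was higher in both shRNA1 libraries, at 13.6 and 15.7 FPKM with scramble and 17.3 and 17.1 with shRNA1 (0.22, adjusted p = 0.511).

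The hem and roof plate transcription factors stood below the filter and were not tested. LMX1A, which specifies the roof plate, lay at 1.20 and 1.37 FPKM with scramble and 0.398 and 0.408 with shRNA1. MSX1 had 1.18 and 1.75 against 0.447 and 0.541, and MSX2 1.18 and 1.32 against 0.394 and 0.341. In all 3 the shRNA1 libraries were lower than either scramble library. GMNC, a regulator of multiciliated cells such as those of the choroid plexus, was at 0.366 and 0.267 against 0.0913 and 0.0802. BAMBI, a decoy receptor for BMP, was at 1.22 and 1.45 against 0.661 and 0.452. Of 25 tested members of the BMP and TGF-beta list, 16 were lower in both shRNA1 libraries and 2 higher, 0 were called, and the median was -0.12.

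TTR, which encodes transthyretin, a carrier of thyroid hormone and retinol made in choroid plexus epithelium, had the largest fold difference in mean FPKM of the 7 genes. It measured 6.03 and 6.63 FPKM with scramble and 0.497 and 0.785 with shRNA1, a 9.88-fold drop in the mean (log2 fold change -2.16 ± 0.10, adjusted p = 0.0154). These levels correspond to about 673 and 1226 reads against 98 and 147, taking the exon length of GENCODE release 29. No other tested choroid plexus gene passed, and 16 of the 26 listed were below the filter and untested. SULF1, which trims sulfate groups from heparan sulfate, had 2.75 and 2.30 FPKM against 0.585 and 0.625 (-1.13, adjusted p = 0.062). CA2, a carbonic anhydrase, had 1.23 and 1.51 against 0.824 and 0.584 (-0.48, adjusted p = 0.339), and OTX2 had 11.2 and 11.8 against 11.0 and 10.8 (-0.07, adjusted p = 0.802). Of the 8 defining choroid plexus markers, 5 were below the filter and untested. Among these, KL was under 0.1 FPKM in all 4 libraries. FOLR1 lay at 0.103 and 0.0856 FPKM with scramble and 0.00729 and 0.0153 with shRNA1, and CLIC6 at 0.267 and 0.235 against 0.110 and 0.101. Without TTR, the other 7 markers summed to 13.8 and 14.5 FPKM with scramble and 12.9 in each shRNA1 library, mostly from OTX2. Of these 7 markers, 4 were lower in both shRNA1 libraries and 0 higher. Their part in the drop of TTR was not tested.

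GJA1 encodes connexin 43, the main gap junction protein of radial glia and astrocytes. It stood at 11.1 and 10.4 FPKM with scramble and at 3.86 in each shRNA1 library, a 2.79-fold drop (log2 fold change -1.28 ± 0.05, adjusted p = 0.0154). Of the 11 tested members of the outer radial glia and astroglial list it was the 1 that fell. NFIA, a transcription factor that opens the way to glial fate, had 3.09 and 2.77 FPKM with scramble and 1.80 and 1.89 with shRNA1 (-0.47, adjusted p = 0.264). That list had 8 members lower in both shRNA1 libraries (72.7%, against 19% of all tested genes) and 1 higher, with a median of -0.13 that was -0.20 without scramble replicate 1.

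CRABP1, a cytosolic carrier of retinoic acid, had the largest log2 fold change of the 7 genes. Its level was 19.4 and 27.0 FPKM with scramble and 3.67 and 3.69 with shRNA1 (log2 fold change -2.35 ± 0.15, adjusted p = 0.0463). The scramble libraries had an SD of 5.34 FPKM around their mean of 23.2, and both were above both shRNA1 libraries. RDH10, which makes retinal from retinol, had 2.75 FPKM in each scramble library and 2.07 and 1.87 with shRNA1 (-0.34, adjusted p = 0.301). The nuclear receptors NR2F1 and NR2F2, which respond to retinoic acid and pattern the cortex, had 4.52 and 4.84 against 2.63 and 2.57 (-0.66, adjusted p = 0.127) and 2.37 and 2.07 against 0.923 and 0.960 (-0.73, adjusted p = 0.149). Enzymes that make retinoic acid were untested at their low level, with ALDH1A1 at 0.241 and 0.275 FPKM with scramble against 0.0312 and 0.0533, and ALDH1A3 at 0.292 and 0.330 against 0.0112 and 0.0169. ALDH1A2, of the same kind, was not lower, at 0.0696 and 0.0488 against 0.0739 and 0.0566. Of 9 tested members of the list, 1 fell, 6 lay below scramble in both shRNA1 libraries and 1 above.

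COL3A1, a fibrillar collagen of connective tissue, measured 3.16 and 3.49 FPKM with scramble and 0.538 and 0.476 with shRNA1. It fell 6.56-fold (log2 fold change -1.52 ± 0.07, adjusted p = 0.0154). Of the other 11 markers of mesenchyme, meninges and pericytes, all below the filter and untested, 8 were lower in both shRNA1 libraries, 1 (TWIST2) was higher and 2 (ACTA2 and FOXC2) overlapped. The 11 summed to 3.96 and 4.53 FPKM with scramble and 1.80 and 1.75 with shRNA1. COL1A2 lay at 0.828 and 0.979 against 0.220 and 0.257, COL1A1 at 0.530 and 0.775 against 0.108 and 0.109, and DCN at 0.136 and 0.125 against 0.0188 and 0.0187. TWIST2 was under 0.1 FPKM in all 4 libraries, and the part of such cells in the drop of COL3A1 was not tested.

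No other tested matrix gene passed. Among those below the filter, POSTN lay at 0.372 and 0.306 FPKM with scramble and 0.0277 and 0.0580 with shRNA1, a gene chosen after its values were seen. The 18 listed fibrillar collagen and mesenchymal matrix genes below the filter did not all follow. THBS2 was higher in both shRNA1 libraries, at 0.295 and 0.367 FPKM with scramble against 0.420 and 0.375. SPARC, a collagen-binding protein, had 28.3 and 30.7 FPKM against 21.4 and 21.7 (-0.44, adjusted p = 0.231), and FBN2, a fibrillin, 2.24 and 2.21 against 1.52 in each shRNA1 library (-0.36, adjusted p = 0.284). The fibronectin gene FN1 gave -0.27 and the laminin gene LAMC1 -0.30, and neither passed. GPC3, a heparan sulfate proteoglycan that binds Wnt proteins, had 5.34 and 6.25 against 3.64 and 3.69 (-0.54, adjusted p = 0.284). Of 9 tested fibrillar collagen and mesenchymal matrix genes, 1 fell and 6 lay below scramble in both shRNA1 libraries, and of 10 basement membrane genes 0 fell and 6 lay below.

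**Figure D2:**
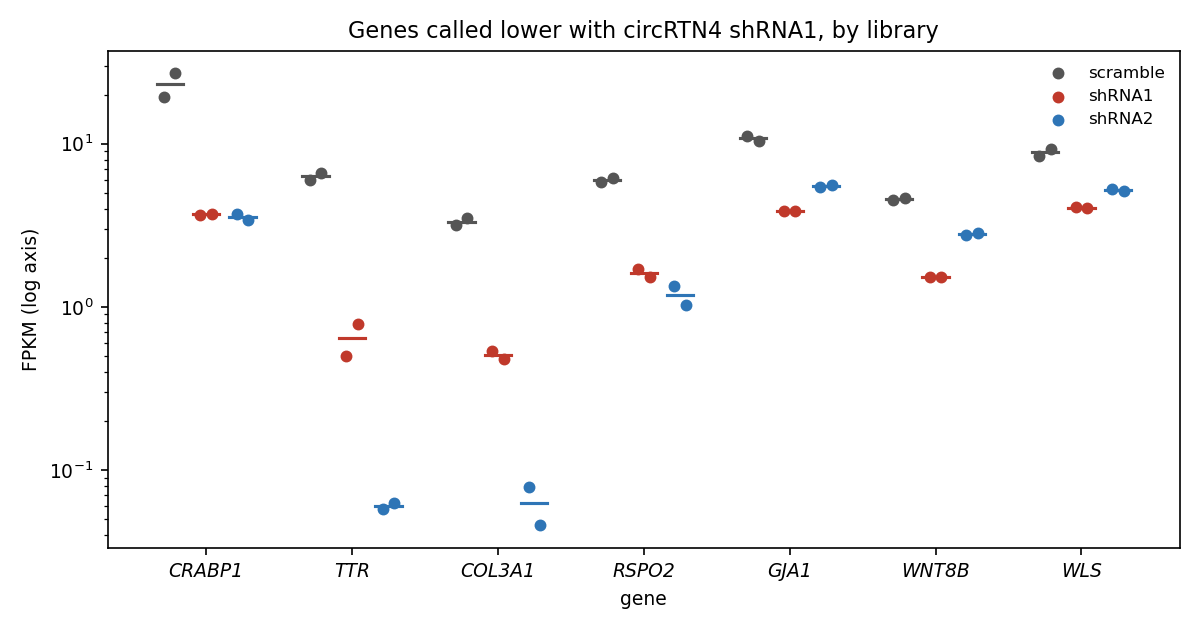
FPKM on a log axis for the 7 genes that fell with shRNA1, with 1 point per library and a bar at the group mean, 2 libraries per group. The shRNA1 points lie below both scramble points for every gene shown, and the shRNA2 points do too, with TTR and COL3A1 under 0.1 FPKM there.

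With shRNA2, whose values rest on the same scramble libraries, the 7 genes were called lower as well, among 107 called genes (0.591%), 77 of them lower (0.425%). WNT8B had 2.77 and 2.83 FPKM with shRNA2, GJA1 5.40 and 5.59, and WLS 5.27 and 5.11, all between the scramble and shRNA1 levels. TTR had 0.0577 and 0.0632 FPKM with shRNA2, COL3A1 0.0790 and 0.0459, and RSPO2 1.35 and 1.03, lower than with shRNA1. CRABP1 had 3.72 and 3.42, close to the shRNA1 level. Tested directly, shRNA2 minus shRNA1 was 0.59 ± 0.05 on the log2 scale for WNT8B (adjusted p = 0.0987), 0.42 ± 0.05 for GJA1 (0.113), -0.50 ± 0.07 for COL3A1 (0.128) and -0.62 ± 0.10 for TTR (0.137). None of the 18110 genes passed in that test (0%), while 671 were higher and 2260 lower with shRNA2 at an unadjusted p under 0.05 (3.71% and 12.5%). That test took its spread from all 6 libraries. Scramble replicates had a larger median SD in log2(FPKM + 1), 0.109, than shRNA1 (0.0353) or shRNA2 replicates (0.0449). The count of 0 therefore does not show that the hairpins act alike.

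The protein-coding genes next in order of p among the lower ones were SULF1, PLS3, SFRP2, NR2F1, TPBG, NR2F2, RSPO3 and FGFR2. PLS3, an actin-bundling protein, measured 10.9 and 9.19 FPKM with scramble and 4.74 and 4.38 with shRNA1 (-0.99, adjusted p = 0.127). FGFR2, a receptor of fibroblast growth factors in progenitors, had 7.66 and 7.76 against 5.39 and 5.38 (-0.45, adjusted p = 0.149). In each of these 8 genes the groups did not overlap, which the naming rule required, and none passed.

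Genes of cell division were lower with shRNA1 by small and even amounts. Of 41 mitosis and spindle genes, all tested, 38 had both shRNA1 libraries below both scramble libraries, against 19% of all tested genes, and the other 3 overlapped. Their median log2 fold change was -0.22, and each of the 41 was negative, while 0 passed the adjusted threshold and 27 had an unadjusted p under 0.05. The median log2(FPKM + 1) of the list was 2.68 in each scramble library and 2.39 and 2.38 with shRNA1. TPX2, which nucleates spindle microtubules, stood at 15.6 and 14.96 FPKM against 12.1 and 12.6 (-0.29, adjusted p = 0.294). MKI67, the classic marker of cycling cells, had 14.9 and 13.7 against 11.5 and 11.8 (-0.27, adjusted p = 0.324), and CENPF, a kinetochore protein, 13.9 and 11.1 against 9.05 and 9.47 (-0.39, adjusted p = 0.415). BIRC5, or survivin, a partner of the Aurora B kinase, had 6.27 and 7.23 against 5.12 and 5.13 (-0.34, adjusted p = 0.339).

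For DNA replication and the G1/S step, 26 of 37 tested genes lay below scramble in both shRNA1 libraries and 0 above, all 37 were negative, and the median was -0.17. FEN1, a flap nuclease of lagging-strand synthesis, had 6.90 and 8.25 FPKM with scramble and 5.24 and 5.19 with shRNA1 (-0.46, adjusted p = 0.301). RRM2, a subunit of ribonucleotide reductase, had 6.49 and 6.11 against 4.74 and 4.94 (-0.32, adjusted p = 0.284), MCM6, of the replicative helicase, 8.37 and 8.30 against 6.63 and 6.16 (-0.34, adjusted p = 0.301), and PCNA, the sliding clamp, 24.1 and 23.6 against 18.8 and 20.8 (-0.26, adjusted p = 0.381). None of the 37 was called. The 57 tested replication-dependent histone genes, whose mRNAs lack a poly(A) tail and are retained in these libraries, had a median of -0.23 and 24 members lower in both shRNA1 libraries. That median rested on 1 library, being -0.46 without scramble replicate 1 and 0.007 without scramble replicate 2.

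Progenitor genes followed with smaller differences. Of 24 neural progenitor and radial glia genes, 17 were lower in both shRNA1 libraries, 0 higher and 0 called, with a median of -0.15. PAX6, a regulator of dorsal progenitors, had 3.31 and 3.17 FPKM against 2.41 and 2.49 (-0.30, adjusted p = 0.324), DACH1 5.92 and 5.14 against 3.92 and 4.23 (-0.36, adjusted p = 0.339), and the filament gene VIM 54.6 and 60.3 against 48.0 and 47.7 (-0.26, adjusted p = 0.381). SOX2, the general progenitor factor, had 32.7 and 31.0 against 28.6 and 29.1 (-0.14, adjusted p = 0.525). HEY1, a target of Notch, and MIB1, which activates Notch ligands, gave -0.32 and -0.34 without passing. The Notch list as a whole had 9 of 25 members below and 1 above, and the sign of its median depended on the scramble library left out (-0.22 and 0.13).

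**Figure D3:**
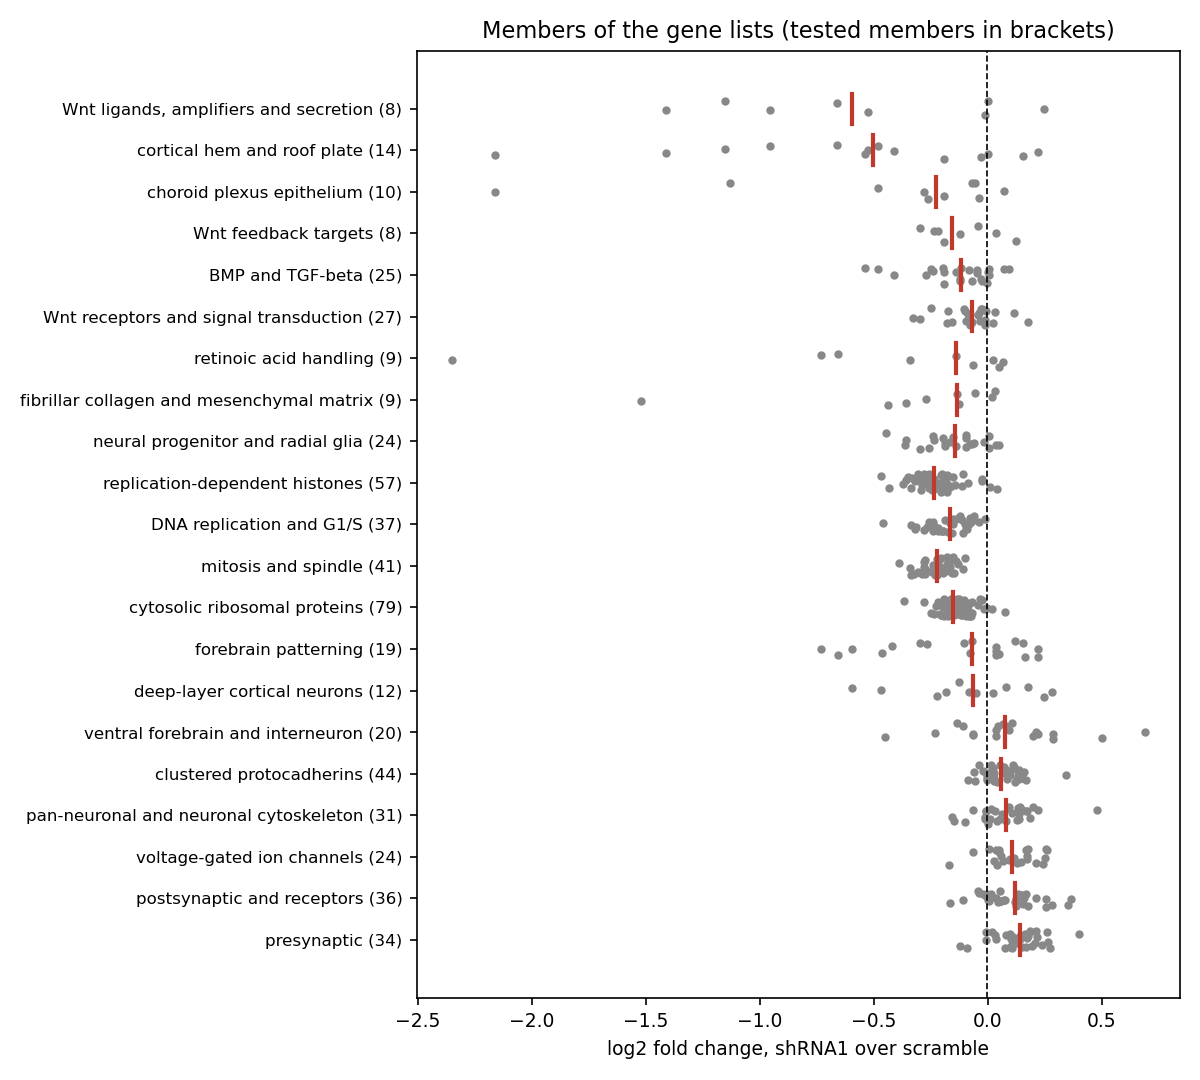
Log2 fold change of shRNA1 over scramble for each tested member of 21 gene lists (grey points), with the median of each list as a red bar and the median of all 18110 tested genes as a dashed line. All mitosis and DNA replication members lie left of 0, while most presynaptic members lie right of it.

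No gene passed in the upward direction. The higher protein-coding genes with the smallest p included SCGN, a calcium-binding protein of interneurons, at 5.45 and 5.78 FPKM with scramble and 10.2 and 9.22 with shRNA1 (0.69, adjusted p = 0.128), and GAD1, which makes GABA, at 4.34 and 4.15 against 6.42 and 6.46 (0.50, adjusted p = 0.149). NKX6-1, a homeodomain factor, lay at 1.31 and 1.54 against 2.63 and 2.72 (0.60, adjusted p = 0.196). GRIA1, an AMPA receptor subunit, had 5.81 and 5.82 against 7.79 and 7.78 (0.37, adjusted p = 0.229), and SCG2, a secretogranin of dense-core vesicles, 6.09 and 5.26 against 8.22 and 8.37 (0.48, adjusted p = 0.271). The remaining 10 of the 15 named by the rule were COPG2, C22orf42, RFTN1, PPP2R2B, BTBD3, SEZ6L, NRP1, STC1, GPR50 and PCDHB15, with log2 fold changes from 0.33 to 0.56 and adjusted p-values from 0.187 to 0.284. The non-coding RNU7-50P, a copy of a small nuclear RNA, had the smallest p of all higher genes, at 0.346 and 0.418 FPKM against 2.35 and 2.67 (1.34, adjusted p = 0.0606). It spans only chr11:3781396-3781451. A read on 1 kb is 0.0214 FPKM in scramble replicate 1, and on a gene this short it counts for far more. Its scramble levels thus rest on very few reads, and reads of its near-identical copies may be shared among them.

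Genes of the synapse were mostly higher with shRNA1. Of 34 tested presynaptic genes, 20 lay above scramble in both shRNA1 libraries and 1 below, against 15.8% and 19% of all tested genes, and 30 were positive. The median log2 fold change was 0.14, and 0.09 without scramble replicate 1. SNAP25, of the vesicle fusion complex, measured 4.86 and 4.33 FPKM with scramble and 5.66 and 5.72 with shRNA1 (0.26, adjusted p = 0.379), RAB3B, a vesicle GTPase, 2.81 and 2.64 against 3.53 and 3.41 (0.26, adjusted p = 0.339), and SYT5, a synaptotagmin, 2.32 and 3.46 against 4.08 and 4.07 (0.40, adjusted p = 0.538). None of the 34 was called, and 13 had an unadjusted p under 0.05.

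On the receiving side of the synapse, 17 of 36 tested genes were above scramble in both shRNA1 libraries and 2 below, with a median of 0.12 that became 0.04 without scramble replicate 1. The NMDA receptor subunit gene GRIN2B had 2.47 and 2.23 FPKM against 3.22 and 3.32 (0.35, adjusted p = 0.294), and GRIA2 9.34 and 7.76 against 10.2 and 10.5 (0.25, adjusted p = 0.492). Among voltage-gated ion channels 11 of 24 were above and 2 below, with a median of 0.11 that was 0.033 without scramble replicate 1 and 0.18 without scramble replicate 2. The sodium channel genes SCN2A and SCN3A gave 0.26 each. Of 31 pan-neuronal genes 15 were above and 1 below (median 0.08, and 0.13 without scramble replicate 2), among them STMN2 at 103 and 99.4 FPKM against 109.7 and 113 (0.13, adjusted p = 0.594) and NEFM at 15.96 and 14.7 against 17.8 and 17.3 (0.18, adjusted p = 0.452). Clustered protocadherins, which give neurons their surface identity, had 21 of 44 above and 1 below, with a median of 0.06. No member of these lists was called.

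Neuron classes differed gene by gene. In the ventral forebrain and interneuron list 9 of 20 tested members were above scramble in both shRNA1 libraries and 5 below. GAD2 had 12.6 and 12.9 FPKM against 15.2 and 14.8 (0.21, adjusted p = 0.339), CALB1 gave 0.29, while somatostatin, SST, had 2.41 and 3.48 against 2.15 and 1.59 (-0.45, adjusted p = 0.514). Of 12 deep-layer cortical genes 4 were above and 6 below. TBR1 had 1.77 and 1.95 against 2.41 and 2.55 (0.28, adjusted p = 0.339), and FEZF2 2.44 and 3.56 against 1.69 and 1.55 (-0.60, adjusted p = 0.383). BCL11B (-0.18) and RELN (0.19), the latter a product of Cajal-Retzius cells, did not pass either. Of 19 forebrain patterning genes 5 were above and 10 below, among the latter EMX2 (-0.27), OTX1 (-0.46) and ZIC5 (-0.42), with adjusted p-values of 0.309, 0.3 and 0.245.

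When the hairpins were compared directly, where no gene passed, members of the mitosis and DNA replication lists were mostly higher and those of the presynaptic list mostly lower with shRNA2. With shRNA2 the median log2 fold change against scramble was -0.07 over all tested genes and -0.09 over protein-coding ones. All 41 mitosis genes were higher in both shRNA2 libraries than in both shRNA1 libraries, against 15.8% of all tested genes, and 22 had an unadjusted p under 0.05 in that direction, against 3.71% of all tested genes. The list's median was -0.02 with shRNA2 against scramble and -0.22 with shRNA1. For DNA replication the medians were -0.11 and -0.17, and 25 of 37 members were higher in both shRNA2 libraries, against the same 15.8%. Presynaptic genes had a median of -0.12 with shRNA2 and 0.14 with shRNA1, and 31 of 34 were lower in both shRNA2 libraries, against 47.6% of all tested genes. At an unadjusted p under 0.05 there were 21 lower presynaptic genes, against 12.5% of all tested genes. SNAP25 was at 4.12 FPKM in each shRNA2 library, below either shRNA1 value, and MKI67 at 13.4 and 13.5, above either. These lists were described from their counts, and no test of a list was made.

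**Figure D4:**
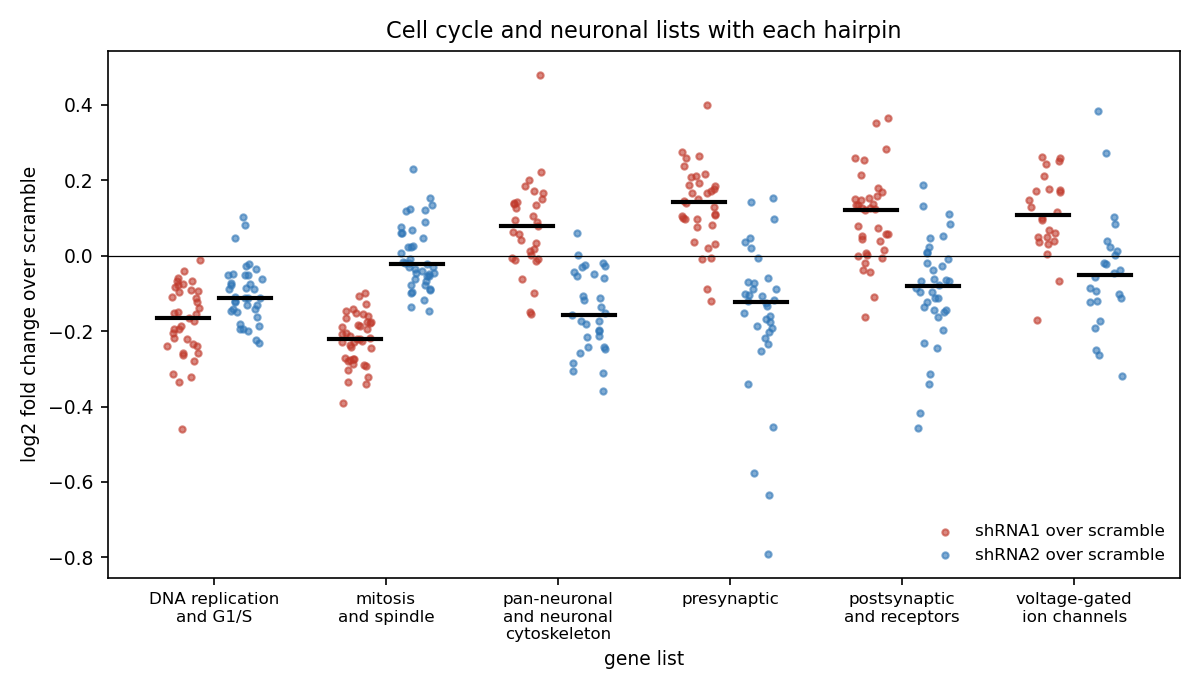
Log2 fold change over scramble with shRNA1 (red) and shRNA2 (blue) for each tested member of 6 gene lists, with bars at the medians, and both sets resting on the same 2 scramble libraries. Mitosis genes centre on -0.22 with shRNA1 and -0.02 with shRNA2, and presynaptic genes on 0.14 and -0.12.

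Axon guidance genes lay on both sides of 0, with 13 of 47 above and 9 below. The netrin receptor gene DCC had 12.5 and 12.1 FPKM with scramble and 15.2 and 15.1 with shRNA1 (0.28, adjusted p = 0.284), and the repellent SLIT2 6.40 and 6.58 against 4.76 and 4.67 (-0.39, adjusted p = 0.233). In the FGF pathway 7 of 24 were above and 5 below, or 29.2% and 20.8%, the latter near the 19% of all tested genes. DUSP4, a phosphatase that dampens ERK signals, had 12.2 and 13.6 against 16.8 and 16.5 (0.35, adjusted p = 0.301), DUSP6 gave 0.24 and FGF14 0.30. Among imprinted genes 10 of 17 were above and 1 below, including MEST at 45.2 and 47.0 FPKM against 56.7 and 56.5 (0.29, adjusted p = 0.294) and DLK1 at 6.81 and 9.33 against 12.1 and 11.7 (0.52, adjusted p = 0.418). None of these genes passed.

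Lists tied to the target and to the method showed 0 called genes each. Among 13 tested reticulons and Nogo receptor genes, RTN1 had 8.70 and 9.54 FPKM with scramble and 11.0 and 10.9 with shRNA1 (0.24, adjusted p = 0.378), and NGFR, a co-receptor of Nogo, 2.16 and 3.07 against 3.67 and 3.73 (0.39, adjusted p = 0.472). Of 21 genes for circular RNA formation and decay, 7 were below scramble in both shRNA1 libraries and 0 above, the largest being NONO at 40.7 and 45.7 FPKM against 32.9 and 32.4 (-0.39, adjusted p = 0.301). Of 22 poly(A)-binding and export genes 8 were below and 0 above. The hairpin-processing genes had 2 of 13 above (15.4%, near the 15.8% of all tested genes) and 4 below, with AGO1 at -0.28 and AGO4 at 0.17. Of 12 tested genes of double-stranded RNA sensing and interferon 6 were below and 0 above, among them IFITM2 at 2.46 and 2.90 FPKM against 1.92 and 1.49 (-0.45, adjusted p = 0.369) and IFITM3 at 6.24 and 8.30 against 4.93 and 5.36 (-0.42, adjusted p = 0.442). Of the 44 genes on that list, 32 were below the filter and untested, and 13 of these were under 0.1 FPKM in all 4 libraries. IFIT1, induced by interferon, was below the filter at 0.533 and 0.645 FPKM with scramble and 0.498 and 0.563 with shRNA1.

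Ribosomal protein genes were slightly lower, with 46 of 79 below scramble in both shRNA1 libraries, 0 above and 0 called. Their median was -0.15, which was -0.24 without scramble replicate 1 and -0.06 without scramble replicate 2. RPS6 had 70.7 and 76.0 FPKM with scramble and 61.6 and 61.4 with shRNA1 (-0.25, adjusted p = 0.367). Of 45 translation factors 18 were below and 0 above, among them EEF1B2 at 29.3 and 29.7 FPKM against 23.6 and 23.7 (-0.30, adjusted p = 0.271) and EEF1A1 at 207 and 212 against 178 and 181 (-0.22, adjusted p = 0.417). Reads of their many pseudogenes may be shared with these genes. Of 8 pluripotency genes 5 were above and 0 below, LIN28A having 2.08 and 2.45 FPKM against 2.86 in each shRNA1 library (0.25, adjusted p = 0.437), while POU5F1 and NANOG were under 0.1 FPKM in all 4 libraries.

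The labelled cell type was visible in each library. The 8 neural progenitor markers summed to 186 and 201 FPKM with scramble and 174.9 in each shRNA1 library, the 6 forebrain markers to 86.5 and 94.0 against 90.0 and 90.8, and the 8 neuron markers to 410 and 406 against 424 and 428. Of the hindbrain and spinal cord markers 7 of 9, and of the endoderm markers 6 of 8, were under 0.1 FPKM in all 4 libraries. Read totals, recovered from FPKM and gene length, were 46634855 and 77187298 for scramble and 82353637 and 78488667 for shRNA1. Small RNA genes took 33.5% and 43.2% of FPKM in the scramble libraries and 38.9% and 37.8% in the shRNA1 libraries. Replicates had a median SD of 0.109 (scramble) and 0.0353 (shRNA1) in log2(FPKM + 1), and the part of depth and of the small RNA share in this difference was not tested.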

How the data were processed

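Per the file headers, the deposited values are FPKM, 1 for each library and gene symbol. The submitters' processing notes name featureCounts 2.0.1, SAMtools 1.9, HISAT2 2.1.0 and Trimmomatic 0.39, and the build GRCh38 (hg38). How multiply matching reads were treated, on which strand and with what annotation, is not given in the sources used here, so overlapping, antisense and near-identical genes are uncertain. Among the symbols 29 had turned into dates, and 4 rows had a duplicated symbol. Values were analysed as log2(FPKM + 1), with no further scaling, by limma 3.58.1 (R 4.3.3) with a mean-variance trend. The fit covered all 6 libraries in 3 groups, which share 1 estimate of the spread, and p-values were adjusted by Benjamini-Hochberg over the 18110 genes. The script was tested on simulated data. With 2 against 2 libraries, an exact permutation test of a single gene cannot go below p = 0.333. Genes were matched to RefSeq (13256 of 18110) and GENCODE release 29 (12609), and 10407 were protein-coding. Read totals of 46634855 to 83629504 were recovered from FPKM and gene length, and 3 reads on 1 kb correspond to 0.0359 to 0.0643 FPKM, counting error only. Python 3.11.15 with pandas 2.3.3 and matplotlib 3.10.9 was used.

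The genes, lists and tests were chosen with earlier results of these data known. Named were RTN4, PABPC1, every called gene, the 15 protein-coding genes per direction with the smallest p whose groups did not overlap, up to 6 members per list by smallest p, and list members whose role orders the account. Lists not described above held no called gene other than GJA1, and their medians ran from -0.18 to 0.09. Alternatives changed the libraries in the fit, pseudocount, filter, scaling, gene set, weights, trend, replicate block and the library left out.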

Additional observations from a re-analysis of the deposited data

How the results depend on the processing

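The count of genes changed with shRNA1 was 7, all lower, with median-of-ratios scaling and with quantile normalization as without them. It was 0 with the 4 libraries alone, 0 with no filter, 2 with a pseudocount of 0.1, 3 when genes had to reach a mean of 5 FPKM, 3 with array weights, 4 with no trend, and 22 (4 higher, 18 lower) among protein-coding genes alone. The genes that passed there besides the 7 were SULF1, PLS3, SFRP2, NR2F1, TPBG, NR2F2, RSPO3, FGFR2, RSPO1, AHNAK and CKS2, lower, and SCGN, GAD1, C22orf42 and NKX6-1, higher, where fewer genes were tested. At a mean of 5 FPKM, only CRABP1, GJA1 and WLS of the 7 were tested, and these 3 passed. Leaving out single libraries gave 0 to 1 changed genes, all lower. With the replicate block the count of genes changed was 0 and of genes lower 0. The labels do not say whether same-numbered libraries were paired. Across genes, same-numbered scramble and shRNA1 libraries deviated with a correlation of -0.0056, and scramble and shRNA2 libraries with -0.15. With 2 libraries per group, these values cannot show whether samples were prepared in pairs.

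Over all alternatives the log2 fold change ranged from -3.14 to -2.04 for TTR, -2.61 to -2.13 for CRABP1, -2.50 to -1.47 for COL3A1, -1.82 to -1.36 for RSPO2, -1.46 to -1.24 for GJA1, -1.53 to -1.13 for WNT8B and -1.10 to -0.89 for WLS, and each gene was called in 4 to 8 of its 14 or 15 settings. Of the named genes, WNT5B reversed to -0.0078 with quantile normalization. Leaving out single libraries gave WNT7A -0.16 to 0.14 and WNT5B -0.094 to 0.0998, with both signs in each, and the cause was not tested.

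With a pseudocount of 0.1, list medians were -0.71 for cortical hem and roof plate, -0.96 for Wnt ligands, amplifiers and secretion, -0.21 for DNA replication, -0.26 for mitosis and 0.16 for presynaptic genes. When genes had to reach a mean of 5 FPKM, so that fewer were tested, they were 0.062, -0.96, -0.24 and -0.24 for the first 4. For Wnt ligands that value was WLS alone, since no other tested member reached that mean. With quantile normalization the medians were -0.20 for mitosis and 0.16 for presynaptic genes. Leaving out single libraries gave -0.65 to -0.34 for the hem list, -0.63 to -0.55 for Wnt ligands, -0.23 to -0.14 for DNA replication, -0.24 to -0.18 for mitosis, 0.091 to 0.18 for presynaptic and 0.038 to 0.15 for postsynaptic genes. Depth limits genes near 1 FPKM most in scramble replicate 1, the shallowest library.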
